A study of Homo sapiens with 6 samples.

Results

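The S100 genes encode small proteins that bind calcium through paired EF-hand loops, and 10 of them were followed here after reexpression of BRG1 in COV434 cells: S100A2, S100A4, S100A6, S100A7, S100A8, S100A9, S100A10, S100A11, S100A14 and S100A16. They were taken by symbol from the table of estimated counts, in which all 10 were present among 19899 genes. S100 proteins mostly work as dimers. A rise in calcium exposes a surface that grips partner proteins such as annexins, myosin or p53, and some members are also secreted and act as danger signals on the receptors RAGE and TLR4. Several are typical products of stratified epithelia, and S100A8 and S100A9, which pair as calprotectin, are among the main proteins of neutrophils and monocytes.

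COV434 is an established ovarian cell line, used as the parental line and treated in the study as a line of SCCOHT, a small cell ovarian carcinoma with hypercalcemia that lacks BRG1, the ATPase of the SWI/SNF chromatin remodelling complex encoded by SMARCA4. Control samples (n = 3) received a control plasmid, for which the study's methods name pCMV-neo or pCDNA3-neo. BRG1 samples (n = 3) received PBJ5-BRG1. Both groups were also given the pBABE-puro plasmid and were selected in puromycin at 2 to 3 µg/ml for 3 days before harvest, so that all samples were pools of transfected cells of a single line under short selection. Poly(A) RNA was sequenced without keeping strand. Depth ran from 29699741 to 63613710 estimated counts, with BRG1 replicate 3 the shallowest library. SMARCA4 held 1439, 1676 and 1538 normalised counts in Control samples 1 to 3 and 108655, 79075 and 78589 in BRG1 samples 1 to 3, transcripts of the plasmid included. The groups were far apart, and BRG1 replicate 1 was the highest. FOXL2, a transcription factor of granulosa cells, had at most 1.22 normalised counts in any sample, and FSHR at most 2.49. Other granulosa markers were detected. AMH held between 227 and 455 and INHA between 35.7 and 47.5 in all samples, and CYP19A1 held 15.8 to 31.8 in Control and 251 to 455 in BRG1 samples. Normalised counts are estimated counts divided by the DESeq2 size factor of the sample.

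S100A2, S100A4, S100A9 and S100A16 rose with BRG1, and none of the 10 was called lower. S100A14 was also called higher, but not with the replicate number as a block. A gene was called when its adjusted p from DESeq2, fitted across all genes, was under 0.05. Of the 7 members with an adjusted p, 5 were called higher and 0 lower, beside 11% of all tested genes called higher and 1.84% called lower. The members were chosen with earlier results of these data known, so this and the further comparisons with all genes are a description only. At an unadjusted p under 0.05 no member was lower either. All members but S100A16 had Control means of at most 4.96 normalised counts. That left little room for a lower call in DESeq2, so the 0 lower says little about them. The quasi-likelihood test of edgeR tested 4 members (S100A2, S100A4, S100A9 and S100A16) and called all 4 higher and 0 lower, beside 9.57% and 1.02% of its genes. S100A2, S100A4 and S100A9 had enough counts to be tested there through the BRG1 samples alone, so for them a lower call was not possible. All 10 members had a fitted log2 fold change above 0, beside 49.9% of all genes with a count, but S100A6, S100A7 and S100A11 had 0 in every Control sample, which fixes their sign. As a description, the median was 3.98 over the 10 members and -0.00103 over all genes. With genes at 0 in Control set to their lower bound, the median over 9 members was 3.90. The 3 samples of each group did not overlap in 7 members, all higher with BRG1, beside 15.4% of all genes higher and 8.88% lower without overlap. All members but S100A4 and S100A16 had 0 in a Control sample, so lower without overlap was not possible for them. With limma-voom and with edgeR blocked by replicate number the same 4 were called higher and 0 lower, beside 9.31% and 13.7% of genes higher and 1.19% and 5.68% lower. DESeq2 blocked by replicate number also called 4 higher and 0 lower, beside 13.4% and 6.61%. S100A14 lost its call there (DESeq2 adjusted p = 0.0626). In bulk RNA, more cells that express a gene and more RNA per cell cannot be told apart.

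**Figure D1:**
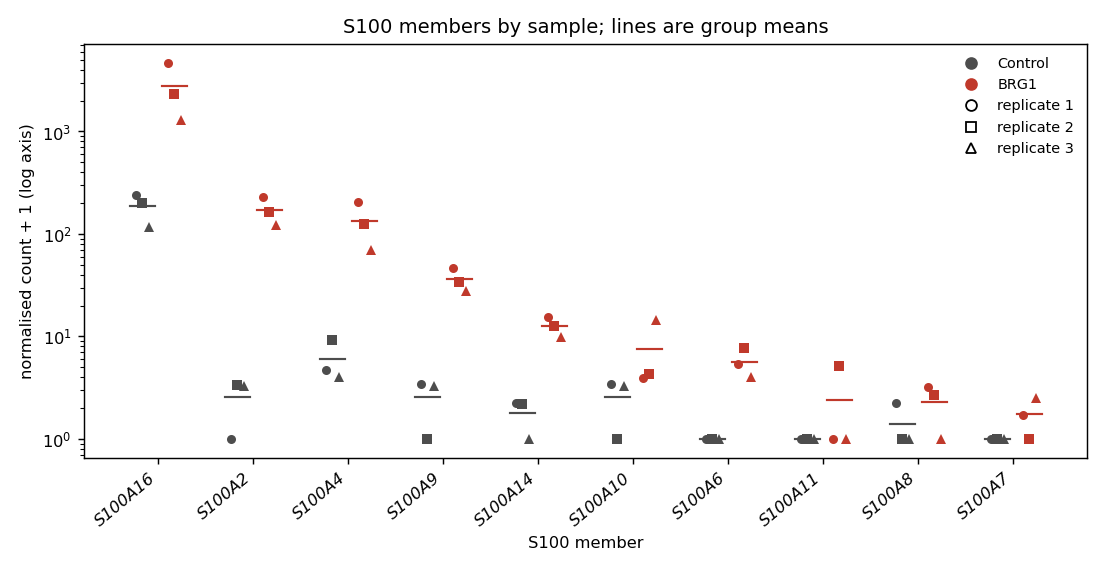
Normalised counts plus 1 (log axis) of the 10 S100 members in each sample, with replicate number by symbol and group means as lines, members ordered by their BRG1 mean. In S100A16, S100A2, S100A4, S100A9 and S100A14 all BRG1 samples lie above all Control samples, while S100A11, S100A8 and S100A7 stay below 5 normalised counts in every sample.

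The sequences before the starts of the genes that moved most securely are given because neighbouring members moved together and because AP-1, a transcription factor of the FOS and JUN families, is the factor the study examined. Each stretch is the 250 bases before the start of the MANE Select transcript, 5′ to 3′ on the gene's own strand, from RefSeq windows of GRCh38.p14. S100A2 (chr1:153565845-153566094, minus strand), S100A4 (chr1:153545807-153546056, minus), S100A16 (chr1:153613138-153613387, minus) and S100A9 (chr1:153357604-153357853, plus) are members. S100A3 (chr1:153549259-153549508, minus) is the gene between S100A4 and S100A2, and its stretch lies within the bounds of S100A4. Capitals mark matches to the motifs searched, which were AP-1 (TGANTCA), the TATA box (TATAAA), C/EBP (TTGCNNAA) and STAT (TTCNNNGAA), on both strands.
S100A2: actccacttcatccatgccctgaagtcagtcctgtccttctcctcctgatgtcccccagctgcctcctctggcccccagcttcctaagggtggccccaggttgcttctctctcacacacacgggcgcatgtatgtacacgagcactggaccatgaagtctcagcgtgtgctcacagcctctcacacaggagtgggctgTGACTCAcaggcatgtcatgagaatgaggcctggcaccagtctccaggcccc
S100A3: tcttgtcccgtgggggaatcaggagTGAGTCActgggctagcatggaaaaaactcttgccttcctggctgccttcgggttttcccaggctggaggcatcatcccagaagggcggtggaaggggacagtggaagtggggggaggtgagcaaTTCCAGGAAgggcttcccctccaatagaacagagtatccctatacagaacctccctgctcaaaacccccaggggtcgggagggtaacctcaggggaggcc
S100A4: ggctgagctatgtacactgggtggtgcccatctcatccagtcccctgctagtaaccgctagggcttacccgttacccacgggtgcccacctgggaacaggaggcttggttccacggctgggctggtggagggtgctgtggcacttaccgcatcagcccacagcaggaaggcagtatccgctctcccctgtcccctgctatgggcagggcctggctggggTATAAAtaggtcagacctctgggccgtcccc
S100A16: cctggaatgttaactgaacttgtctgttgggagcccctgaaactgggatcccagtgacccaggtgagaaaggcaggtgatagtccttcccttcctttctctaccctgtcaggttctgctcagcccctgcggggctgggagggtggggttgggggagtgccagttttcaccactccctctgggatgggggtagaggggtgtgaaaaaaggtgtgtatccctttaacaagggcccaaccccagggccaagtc
S100A9: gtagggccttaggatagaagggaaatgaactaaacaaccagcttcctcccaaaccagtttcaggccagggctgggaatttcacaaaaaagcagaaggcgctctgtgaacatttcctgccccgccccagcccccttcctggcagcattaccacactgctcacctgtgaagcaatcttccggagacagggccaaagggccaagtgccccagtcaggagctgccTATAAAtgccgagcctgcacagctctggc

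The AP-1 letters were found at -52 from the start of S100A2 and at -225 from that of S100A3, where the STAT letters also stood, at -100. The TATA box letters stood at -31 in S100A4 and at -29 in S100A9, and S100A16 held none of the 4 motifs. Matches in these stretches did not overlap each other. Over the whole RefSeq windows of 300 bases, 250 before and 50 after the start, the AP-1 letters occurred in 7.71% of all 35116 windows and the TATA box letters in 11.5%. Among the 10 members, 1 had the AP-1 letters in a window, 4 the TATA box letters, 1 the C/EBP letters (10.5% of all windows) and 0 the STAT letters (7.66% of all windows), where a gene with several starts has several windows. These matches describe letters only, and binding was not measured in these samples. The study measured binding in other SCCOHT lines, BIN67 and SCCOHT-1, and reports recruitment of BRG1 and the JUN family protein c-Jun at S100A2.

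S100A16, a broadly expressed epithelial member that binds calcium weakly, was the most abundant member in both groups. The gene spans 153606886 to 153613145 of chromosome 1, minus strand (GRCh38, GENCODE release 44). Control samples 1 to 3 held 240, 198 and 115 normalised counts and BRG1 samples 1 to 3 held 4682, 2300 and 1282. The lowest BRG1 sample was thus well above the highest Control sample. The log2 fold change was 3.90 (SE 0.45, DESeq2 adjusted p = 1.1e-16, edgeR adjusted p = 0.00212), and without BRG1 replicate 1 it was 3.29. S100A16 made up between 84.1% and 95.6% of the counts of the 10 members in every sample, so it sets their total. That total was 4.18 ± 1.38 CPM, counts scaled to the size of the library (SD, n = 3), in Control and 68.4 ± 39.9 in BRG1 samples, a ratio of 16.4 between the means. Per kilobase of transcript, S100A16 still held 76.2% to 91.5% of the members' counts.

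S100A2, a nuclear member of basal keratinocytes that binds p53 family proteins, was nearly silent in Control. Its normalised counts were 0, 2.35 and 2.27 in Control and 228, 162 and 121 in BRG1 samples, with no overlap. The log2 fold change was 6.70 (SE 0.76, DESeq2 adjusted p = 6.7e-17, edgeR adjusted p = 4.2e-04), the largest fitted value among the members with an adjusted p. Control held 5 counts in all and BRG1 590, a depth-adjusted ratio of 109 with an exact 95% interval of 46.3 to 336 that covers counting error only. The gene spans 153561108 to 153567890 on the minus strand.

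S100A4, known as metastasin for its part in cell motility through non-muscle myosin, started from the same low range. Control samples held 3.65, 8.21 and 3.03 normalised counts and BRG1 samples 206, 124 and 68.7. Every BRG1 sample exceeded every Control sample. The log2 fold change was 4.79 (SE 0.64, DESeq2 adjusted p = 2.5e-12, edgeR adjusted p = 0.00171). On 14 counts against 479 the ratio was 31.5, with a counting interval of 18.6 to 58.1. S100A4 spans 153543613 to 153550136 and its bounds overlap those of S100A3, but the annotated exons of the genes share no bases.

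S100A14, an epithelial member that keeps only weak calcium binding, rose from a handful of counts, and its call was the least secure. It held 1.22, 1.17 and 0 normalised counts in Control and 14.5, 11.6 and 8.96 in BRG1 samples, again without overlap. The log2 fold change was 4.05 (SE 1.37, DESeq2 adjusted p = 0.0272), and edgeR left the gene out for its low counts. On 2 counts against 40 the ratio was 18.4, with a counting interval of 4.78 to 157. In the fit blocked by replicate number the adjusted p was 0.0626, and it was between 0.0655 and 0.222 without Control replicate 1, 2 or 3 or BRG1 replicate 1 or 2, so the call was lost in each of those fits. The log2 fold change was 3.30 without Control replicate 3. S100A14 (153614255 to 153616986) and S100A2 are also on the xCell epithelial gene list that the study used.

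S100A9 rose, while a change in S100A8, its partner, was not detectable at this depth. S100A9 had 2.44, 0 and 2.27 normalised counts in Control and 45.7, 33.2 and 26.9 in BRG1 samples, a log2 fold change of 4.44 (SE 0.90, DESeq2 adjusted p = 1.3e-05, edgeR adjusted p = 0.00415). S100A8, the other chain of calprotectin, had 1.22, 0 and 0 in Control and 2.18, 1.66 and 0 in BRG1 samples. S100A9 was clearly above its Control range, whereas the S100A8 groups overlapped and rested on 1 and 5 counts, a ratio of 4.60 with a counting interval of 0.515 to 218. A rise in S100A8 as large as that of S100A9, whose own ratio was 22.3 with an interval of 9.29 to 69.9, lies inside that interval. The log2 ratio of S100A9 to S100A8 counts plus 1 was 0.86 ± 1.02 (SD, n = 3) in Control and 4.01 ± 0.23 in BRG1 samples. The difference of 3.15 had a two-sided exact permutation p of 0.1, the smallest that 3 samples against 3 allow, and with 10 in place of 1 added to the counts the difference was 1.84. Because S100A8 had so few counts, the added number sets most of its side of the ratio, and the difference largely restates the S100A9 values.

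Myeloid cells are the usual source of both chains, so their markers are given beside them. Of 11 myeloid markers, 10 had a count and 1, lysozyme (LYZ), was called higher, from at most 2.44 normalised counts in Control to between 13.8 and 22.4 in BRG1 samples, with 34.7% of its exonic bases shared with another gene. MPO was at 0 in all samples, CSF3R and TYROBP reached 0.831, CD14 13.4 and ELANE 41.8. CSF1R had 4.87, 0 and 0.757 in Control and 7.25, 12.5 and 5.97 in BRG1 samples, higher without overlap but not called (DESeq2 adjusted p = 0.359). The summed level of the list was 357 to 715 in Control and 401 to 809 in BRG1 samples, most of it PTPRC, which had 336 to 669 in Control and 360 to 722 in BRG1 samples. Markers of squamous epithelium were examined in the same way. KRT5, KRT14, KRT6A, KRT13 and SFN, 5 of 8, were called higher, 0 lower, and none of the 8 was at 0 throughout. Their summed level was 687 to 892 in Control and 56736 to 145897 in BRG1 samples, while TP63 had at most 10.6 in any sample. DSG3 went the other way, with 263, 249 and 220 in Control and 111, 179 and 187 in BRG1 samples, lower without overlap but not called (log2 fold change -0.62, DESeq2 adjusted p = 0.143), and the log2 fold changes of DSC3 and TP63 were -0.37 and -0.26. KRT6A carried most of that sum, with 215 to 451 in Control and 55380 to 140786 in BRG1 samples. Of 7 fibroblast markers PDGFRA was called higher, and the 7 summed to 5256 to 8752 in Control and 4279 to 9349 in BRG1 samples. Of 5 granulosa markers CYP19A1 was called higher, and the 5 summed to 291 to 470 in Control and 638 to 921 in BRG1 samples. DESeq2 gave an adjusted p to 6 myeloid, 8 squamous, 7 fibroblast and 3 granulosa markers. Over all tested genes it called 11% higher and 1.84% lower, and the lists with 1 call are too short to set apart from that share. All 4 lists were chosen with earlier results of these data known, so their shares of calls are a description only. KRT14 and KRT13 had Control means of 2.5 and 1.2 normalised counts, which left little room for a lower call. The part of these marker lists in the S100 changes was not tested.

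S100A6, S100A10 and S100A11 are among the most widely expressed S100 genes, yet they were near 0 in these cells. S100A6, calcyclin, had 0 in all Control samples and 4.35, 6.65 and 2.99 normalised counts in BRG1 samples. The BRG1 samples held 16 counts against 0, at least 4.91-fold higher when Control is set to 3 counts over the group, and the adjusted p was 0.149. S100A10, the p11 chain that holds annexin A2 in a tetramer at the membrane, had 2.44, 0 and 2.27 in Control and 2.90, 3.32 and 13.4 in BRG1 samples. Here BRG1 replicate 3 was the highest, unlike in the called members, and the DESeq2 adjusted p was 0.512. On 5 counts against 17 its ratio was 3.13, with a counting interval of 1.11 to 10.9. S100A11, a partner of annexin A1, had 4.15 normalised counts in BRG1 replicate 2 and 0 in all other samples. A change in S100A11 was not detectable at this depth.

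S100A7, psoriasin, an antimicrobial protein of inflamed skin, had 0 in all Control samples and 0.725, 0 and 1.49 normalised counts in BRG1 samples. Its near copy S100A7A had the same values in every sample, and the split of so few reads between them is uncertain. DESeq2 gave S100A7, S100A8 and S100A11 no adjusted p.

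Levels of different members are compared per kilobase of the MANE Select transcript. In BRG1 samples the order of mean normalised counts per kilobase was S100A16 (2350 ± 1489, SD, n = 3), S100A4 (259 ± 135), S100A2 (174 ± 55.2), S100A9 (61.5 ± 16.7), S100A14 (11.1 ± 2.63), S100A6 (10.7 ± 4.26), S100A10 (9.77 ± 8.89), S100A8 (3.14 ± 2.79), S100A11 (2.46 ± 4.26) and S100A7 (1.72 ± 1.74). S100A4 and S100A2 overlapped, and so did each neighbouring pair from S100A14 downwards. The steps from S100A16 to S100A4, from S100A2 to S100A9 and from S100A9 to S100A14 left no overlap between the 3 samples of each gene. In Control S100A16 stood at 157 ± 54.2 per kilobase, above all other members, the next being S100A4 at 9.68 ± 5.51.

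**Figure D2:**
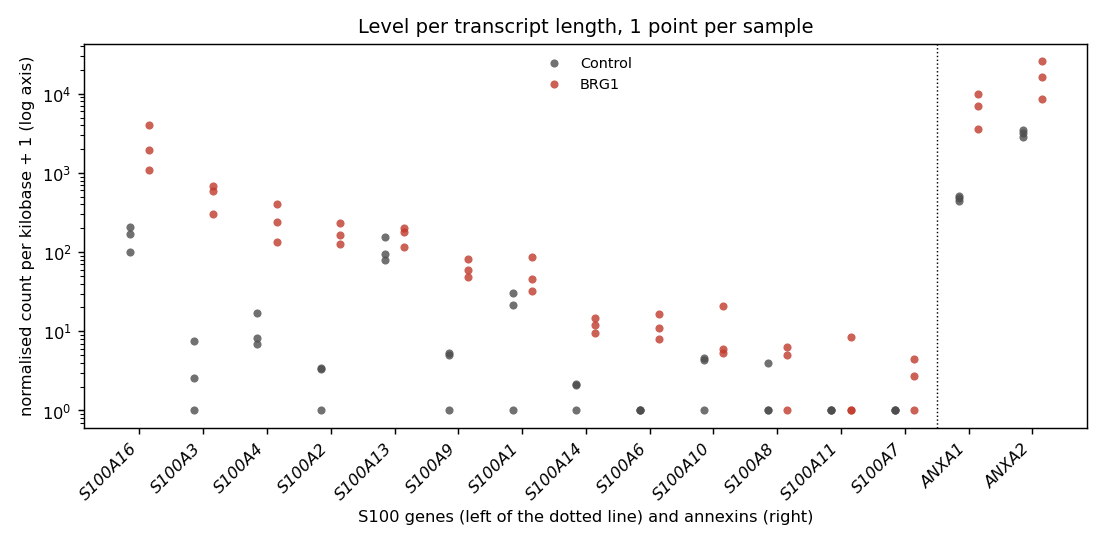
Normalised counts per kilobase of transcript plus 1 (log axis) for 13 S100 genes and, right of the dotted line, ANXA1 and ANXA2, with 1 point per sample. S100A16 has the highest mean of the S100 genes in both groups, overlapping S100A13 in Control, while S100A10 and S100A11 stay below both annexins in every sample.

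The folds differed between replicates more than their direction did. Taken within replicate numbers 1, 2 and 3 on normalised counts plus 1, the fold was 229, 48.7 and 37.3 for S100A2 and 44.5, 13.5 and 17.3 for S100A4. It was 19.4, 11.6 and 11.1 for S100A16, 13.6, 34.2 and 8.52 for S100A9, and 6.99, 5.81 and 9.96 for S100A14. In all 5 called members BRG1 replicate 1 had the highest and BRG1 replicate 3 the lowest normalised count. SMARCA4, with folds of 75.5, 47.2 and 51.1, was also highest in BRG1 replicate 1, while its replicates 2 and 3 were close together. The part of SMARCA4 level in the spread of the S100 genes was not tested.

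**Figure D3:**
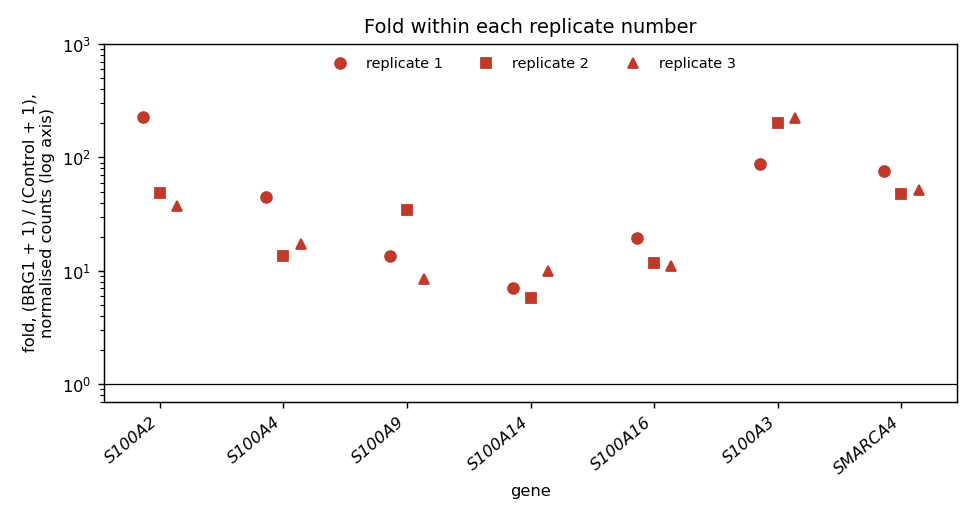
Fold within each replicate number, (BRG1 + 1) / (Control + 1) on normalised counts (log axis), for the 5 called members, S100A3 and SMARCA4. Every point lies above 1, from 5.81 for S100A14 to 229 for S100A2, and the added 1 lowers the folds of genes that are near 0 in Control.

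The position of the genes was examined next, because most S100 genes sit side by side on chromosome 1 within the epidermal differentiation complex. All 10 members lie there, S100A10 and S100A11 apart from the other 8 by 1309947 bases, and 7 further S100 genes lie among or next to them. From S100A9 at 153357854 to S100A1 at 153632039, the called genes were S100A9 at the near end and then an uninterrupted run of S100A4, S100A3, S100A2, S100A16 and S100A14. The genes between S100A9 and that run were S100A12, S100A8, S100A7A, S100A7L2, S100A7, S100A6 and S100A5, and none of them was called. Of these, S100A6 alone had enough counts for an adjusted p. On the far side of the run came S100A13 and S100A1, which also were not called. CHTOP, the next gene beyond S100A1, had 4110, 4876 and 4387 normalised counts in Control and 4047, 4289 and 4712 in BRG1 samples, with full overlap (log2 fold change -0.04, adjusted p = 0.946). PGLYRP4, the gene before S100A9, reached at most 2.49. Of the 45 other genes in the table that lie between S100A10 and S100A1, which include filaggrin, involucrin and late cornified envelope genes, 35 had a count. DESeq2 called 13 higher and 0 lower out of 21 with an adjusted p, beside 11% and 1.84% of all tested genes, and edgeR called 11 and 0 out of 13, beside 9.57% and 1.02%. Summed over the 45, the level was 165 to 278 normalised counts in Control and 11548 to 27509 in BRG1 samples. Such low Control counts left little room for a lower call. Genes can also have entered the tests through their BRG1 counts, so these shares are a description only.

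**Figure D4:**
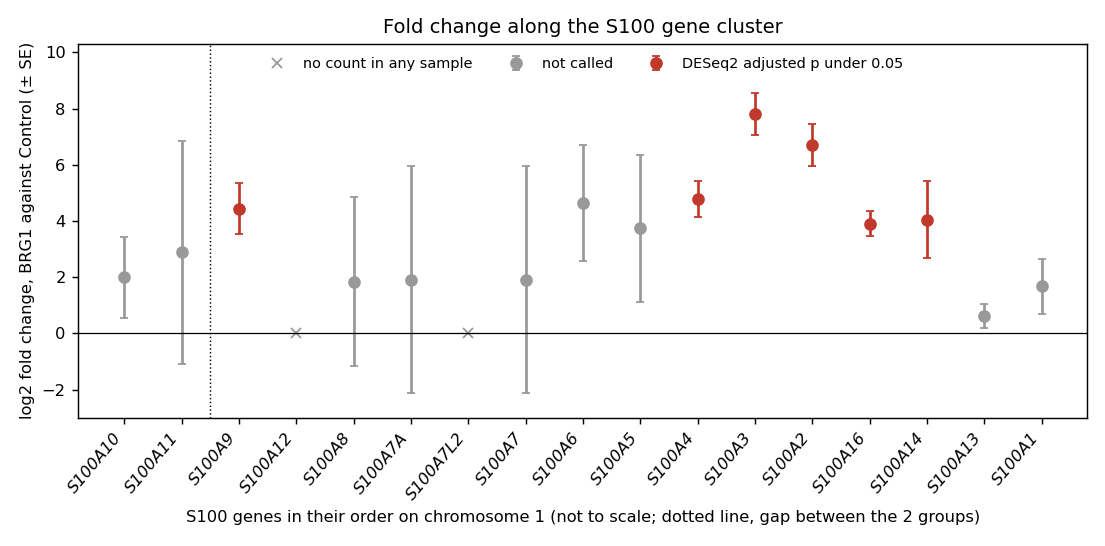
Log2 fold change of BRG1 against Control with its standard error for the 17 S100 genes of chromosome 1, in gene order and not to scale, with the gap of 1309947 bases as a dotted line and called genes in red. S100A4, S100A3, S100A2, S100A16 and S100A14 form an unbroken called run, S100A9 is called alone at the other end, and genes near 0 counts have wide errors. S100A14 lost its call with the replicate number as a block. Of the genes between S100A9 and the run, S100A6 alone had enough counts for an adjusted p.

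S100A3, a cysteine-rich S100 protein of the hair cuticle, is not among the 10 members but had the largest fitted change of the family. It held 4.87, 1.17 and 0 normalised counts in Control and 511, 434 and 222 in BRG1 samples, a log2 fold change of 7.81 (SE 0.76, DESeq2 adjusted p = 6.5e-23, edgeR adjusted p = 5.4e-04). On 5 counts against 1377 the ratio was 254, with a counting interval of 108 to 782. Of the 11 other S100 genes in the table, 6 had a count, 3 had an adjusted p, and S100A3 was the 1 called higher, with 0 lower. S100A13, which carries FGF1 and interleukin-1 alpha out of cells, had 73.1, 44.6 and 37.9 in Control and 96.5, 83.9 and 55.2 in BRG1 samples, and its groups overlapped (log2 fold change 0.62, adjusted p = 0.456). S100A1, a regulator of calcium handling in muscle, had 0, 16.4 and 11.4 against 17.4, 24.9 and 47.8 (adjusted p = 0.347). Of the exonic bases of S100A13 33.5%, and of those of S100A1 18.3%, are also exons of another gene, among them each other's on opposite strands, so both values are uncertain without strand. S100A7L2, S100A12, S100B, S100G and S100Z had no count in any sample.

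The proteins that S100 proteins bind were then counted from lists of annexins, receptors and other partners. Of 38 partner genes, all with a count, DESeq2 called 14 higher and 0 lower out of 35 with an adjusted p, and edgeR 13 and 0 out of 29 tested. Over all tested genes DESeq2 called 11% higher and 1.84% lower, and edgeR 9.57% and 1.02%. The lists were chosen with earlier results of these data known, so the comparison with all genes is a description only. Among the called genes, KCNK3, IL1A and PLAT had Control means of at most 4.98 normalised counts, which left little room for a lower call. At an unadjusted p under 0.05 in DESeq2, 1 was lower, the myosin heavy chain MYH10 (log2 fold change -0.32, SE 0.16). The median log2 fold change of the 38 was 0.77, beside -0.00103 over all genes. With genes at 0 in Control set to their lower bound, it was 0.45, beside -0.00452 over all genes. The samples of the groups did not overlap in 16 partner genes higher with BRG1 and 3 lower, beside 15.4% and 8.88% of all genes. Blocked by replicate number, DESeq2 also called CACYBP lower, a ubiquitin ligase component that binds S100A6, with a log2 fold change of -0.29 and an adjusted p of 0.0418, but edgeR blocked in the same way did not (adjusted p = 0.0627).

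Annexins, which join membranes in a calcium-dependent way, were the group with the largest share of calls. Of 7 genes in the annexin and AHNAK list, 5 were called higher. ANXA1, the partner of S100A11, held 713, 623 and 666 normalised counts in Control and 13721, 9674 and 4958 in BRG1 samples (log2 fold change 3.83, SE 0.33, adjusted p = 1.0e-28). ANXA2, the partner of S100A10, held 5015, 5485 and 4409 in Control and 39746, 24970 and 13333 in BRG1 samples (log2 fold change 2.39, SE 0.35, adjusted p = 2.1e-10). Both annexins were thus abundant, and higher with BRG1 in every sample, in cells where their S100 partners were near 0. Per kilobase, ANXA2 stood at 16741 ± 8518 in BRG1 samples (SD, n = 3) beside 9.77 ± 8.89 for S100A10, and in Control at 3198 ± 347 beside 2.34 ± 2.03. AHNAK, a giant scaffold that docks on the S100A10 and annexin A2 complex, rose by 1.29 on the log2 scale (SE 0.29, adjusted p = 1.5e-04), and ANXA4 by 0.94 (SE 0.13, adjusted p = 7.0e-12). ANXA5 was called by DESeq2 (log2 fold change 1.02, adjusted p = 0.0107) but not by edgeR (adjusted p = 0.0738), whereas with the replicate number as a block both called it (adjusted p = 1.3e-05 and 0.0116).

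Of 6 receptors, TLR4 and AGER were called higher. TLR4, which calprotectin can engage, had 11, 21.1 and 6.81 normalised counts in Control and 460, 358 and 94.0 in BRG1 samples (log2 fold change 4.58, SE 0.62, adjusted p = 4.8e-12). AGER, which encodes RAGE, had 69.4, 86.8 and 90.9 against 263, 142 and 188, also without overlap (log2 fold change 1.26, SE 0.32, adjusted p = 0.00125). BSG, a receptor for S100A9 and the most abundant of the 6, had 24985, 26423 and 26428 against 25508, 26489 and 25258. Its groups overlapped, with a log2 fold change of -0.01 and an adjusted p of 0.977.

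Of the 25 intracellular and secreted partners, 7 were called higher. The myosin heavy chain MYH9, a target of S100A4, rose by 0.60 on the log2 scale from 71979 ± 10540 normalised counts (SD, n = 3) to 109452 ± 17655 (adjusted p = 0.0152). FGF1 and IL1A, the cargo of S100A13, rose by 5.14 (adjusted p = 4.3e-15) and 6.16 (adjusted p = 4.9e-12) on the log2 scale. IL1A went from 3.65, 4.69 and 0 normalised counts to 338, 113 and 91.0, and FGF1 from 17.1, 36.4 and 12.9 to 1486, 596 and 230. Also called were EZR, a membrane linker (log2 fold change 1.40, adjusted p = 2.2e-04), PLAT, the tissue plasminogen activator (4.13, adjusted p = 5.9e-06), and KCNK3, a potassium channel whose transport involves S100A10 (5.21, adjusted p = 1.4e-06). All 7 were also called by edgeR.

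**Figure D5:**
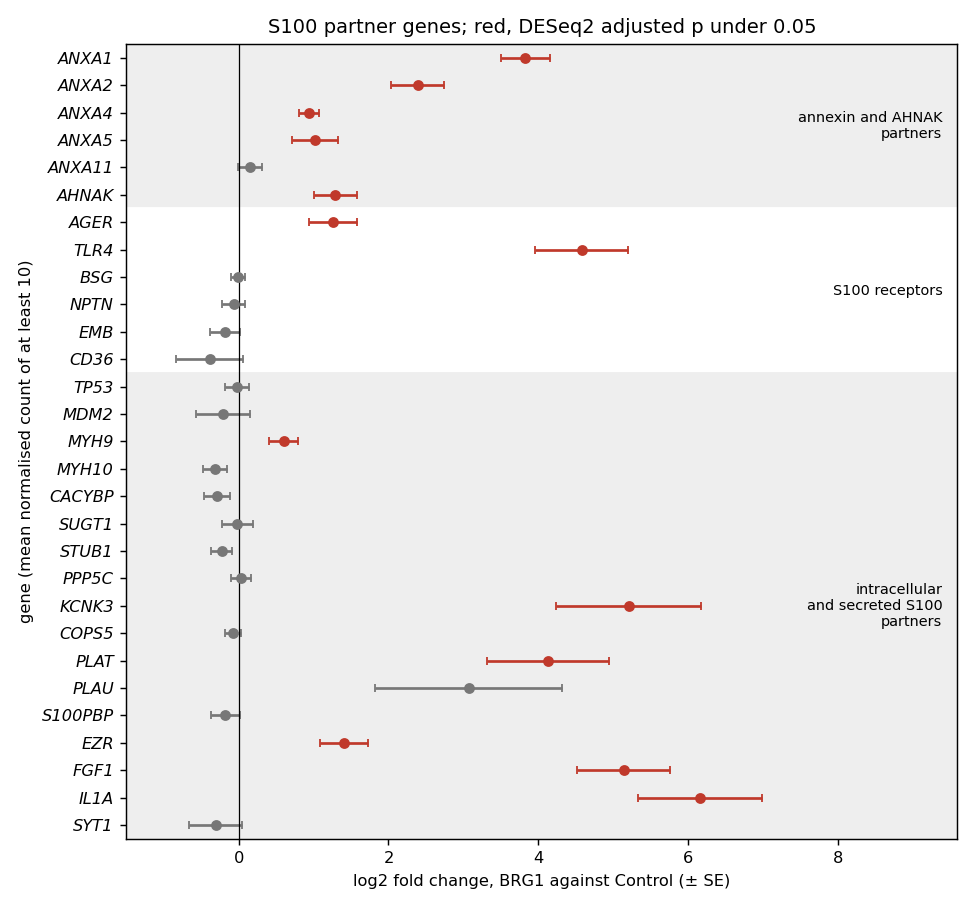
Log2 fold change of BRG1 against Control with its standard error for S100 partner genes whose normalised count averaged at least 10, grouped into annexins and AHNAK, receptors and other partners, with called genes in red. All red points lie above 0, the smallest being MYH9 at 0.60 and the largest IL1A at 6.16.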

How the data were processed

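RNA-seq of 3 Control and 3 BRG1 samples of COV434 cells was used. The authors sequenced unstranded poly(A) libraries made from 500 ng of RNA (read pairs of 78 bases), aligned reads with STAR 2.5.3a, quantified them with Salmon 0.8.2 on GENCODE release 24 (hg38) and used tximport for gene totals. The deposited unit is the estimated count of each gene, scaled by transcript length and library size; Salmon's model divides shared reads between similar genes, so low values of near copies are uncertain.

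The members and gene lists were chosen with earlier results of these data known. The counts were rounded to whole numbers; 18096 of 19899 genes had a count. As in the study, DESeq2 (here 1.42.0, R 4.3.3; Wald test, no covariate) was the main test, fitted over all genes with Benjamini-Hochberg adjustment and a threshold of 0.05. Alternatives were edgeR 4.0.16, limma-voom 3.58.1, TMM-based size factors, a filter of at least 10 counts in at least 3 samples, the replicate number as a block, and each sample left out. The code of DESeq2 and edgeR was checked on a simulated data set, where the share of false calls exceeded the threshold in DESeq2 and not in edgeR. That set held fewer changed genes than were called here, so its shares do not carry over to these data. The edgeR values stand beside the DESeq2 calls as a further test. The labels number the replicates within each group, and these were taken as biological. Samples with the same replicate number deviated together from their group means, with correlations of 0.546, 0.578 and 0.626 over 14220 genes, so the numbers pair the samples.

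The rule for named genes took the 10 members, other S100 genes that averaged at least 10 normalised counts, called partner genes (1 of which is counted but not reported here), ANXA1, ANXA2, SMARCA4 and genes next to members. BSG, MYH10, CHTOP, CACYBP, S100A7A, the markers given with values and the genes at 0 were named after their values were seen. Ratios of summed counts were divided by summed size factors, with exact 95% intervals that cover counting error only; a group at 0 was set to 3 counts over the group. Folds within replicate numbers used a pseudocount of 1. Positions are from GENCODE release 44 and promoter windows from RefSeq (GRCh38.p14), where 19 S100 genes had a window. Neither protein sequences nor protein levels were analysed here.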

Additional observations from a re-analysis of the deposited data

How the results depend on the processing

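The calls of S100A2, S100A4, S100A9 and S100A16 held under all 12 alternatives, and no member had a log2 fold change below 0 in any of them. The number of members called higher was 4 to 5 when each sample was left out, and the number called lower was 0 in every fit. Low Control counts left little room for a lower call in all members but S100A16. The paired fit, with the replicate number as a block in DESeq2, changed the call of S100A14 (adjusted p = 0.0626) and of no other member. It called 1 partner gene lower, CACYBP, while 14 stayed the number called higher. Fits that test fewer genes give a fold change for 4 members only, all above 0, which moved the median log2 fold change of the members from 3.98 to 4.53 with edgeR, 4.56 with limma-voom, 4.62 with the low-count filter and 4.46 with edgeR and the block. With samples left out, 9 to 10 members were above 0, the median ran from 3.48 to 4.37, partner genes called higher from 12 to 14 and the difference in the S100A9 to S100A8 log2 ratio from 2.72 to 3.72. That difference stayed 3.15 with the pairing, where the exact p was 0.25, the smallest that 3 pairs allow. Depth limits S100A6, S100A7, S100A8, S100A10, S100A11 and S100A14, which rest on at most 40 counts in a group.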
